A study of Homo sapiens with 4 samples.

Results

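The genes described here encode the epidermal growth factor (EGF) receptor family, also called the ErbB family, and its ligands. They were read in HepG2, a human hepatoma cell line, after depletion of the histone demethylase LSD1 (gene KDM1A). The list had 9 genes, the ligands EREG, AREG, HBEGF, TGFA, BTC and EGF and the receptors EGFR, ERBB2 and ERBB3. Probe sets whose annotation names exactly 1 gene were taken for each. This gave 29 probe sets for 8 of the genes, out of 54675 probe sets and 19775 genes in all, and AREG was not analysed here. The genes were chosen with the knockdown and control values of these arrays already known, so those values are given as a description, with no test.

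Signalling by this family begins when a soluble ligand, cut from a membrane-bound precursor by proteases of the cell surface, binds the outer part of a receptor. Ligand-bound EGFR pairs with itself or with ERBB2 or ERBB3, and the paired receptors phosphorylate each other and recruit adaptors that switch on RAS, ERK and the PI3K and AKT pathway. ERBB2 has no known ligand of its own, and ERBB3 has little kinase activity, so both depend on a partner. In hepatocytes EGFR is an abundant receptor that takes part in regeneration, and hepatoma cells can make several of its ligands themselves.

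There were 4 Affymetrix HG-U133 Plus 2.0 arrays of biotin-labelled total RNA. For the 2 control arrays cells had received an siRNA that targets GL3, and for the 2 knockdown arrays they had received siRNA-1 (1 array) or siRNA-2 (1 array), both directed at LSD1. All cells grew in medium with 25 mM glucose and 10% serum, received siRNA at about 50% confluence and were cultured for 4 days. The 2 knockdown arrays received different siRNAs, so the spread between them also holds any difference between the siRNAs. Errors of the mean knockdown-control difference include that spread. Nothing in the labels ties the 2 control arrays to separate cultures, so the spread between the controls may be technical. The errors come from limma, which draws each gene's spread toward that of all genes (empirical Bayes). An error given for 1 gene is therefore not the spread of its own arrays alone. Both siRNAs are compared with the same controls. In bulk RNA, fewer cells with a transcript and less of it per cell cannot be told apart.

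Values are log2 values that the authors centred so that the median of the 4 arrays is 0 in every probe set. A single value therefore carries no level, and only differences between arrays are read; a probe set's middle pair of values mirror each other by construction. A rough brightness class, from the numeric step of the values, places each probe set at a level of 8 or above, from 4 to 8, or below 4. All 4 arrays must show the step, so the lowest array sets the class. A probe set that is low in only 1 group can therefore fall into a lower class. The class, and the probe set chosen by it, can thus depend on the differences described here. Chance moves some probe sets into the next brighter class (16.5% of the brightest class lay on the next coarser step, which no level reaches). Classes are no measure of level between genes. KDM1A, the targeted gene, was 5.91-fold lower (controls 1.23 and 1.17, siRNA-1 -1.55, siRNA-2 -1.17). All 8 measured hepatocyte markers were in the brightest class, each gene being read by its brightest probe set. The fibroblast marker DCN and the leukocyte marker LYZ were in that class too. In all 8 hepatocyte markers both knockdown arrays exceeded both controls, by a median of 0.42. Over all genes 23.7% were higher in that sense, and in 25.4% both knockdown arrays lay below both controls. Of the markers of other cells, 1 of 5 for fibroblasts was higher and 1 lower in that sense, 1 of 4 for endothelium was lower, and 0 of 3 for leukocytes was either. The fibroblast gene COL1A1 read 1.10 under siRNA-1 and 2.65 under siRNA-2 against the control mean, and PDGFRB -1.18 and 0.63. The 18 probe sets of hybridization spike-ins were 2.44-fold higher on the knockdown arrays (1.28, from 0.80 to 1.53). For ACTB the 5' signal relative to the 3' signal was lower on those arrays than on the controls (-0.61), and for GAPDH by less (-0.175). Centring leaves only this change readable, not which end was brighter. The part of these differences in the results below was not tested.

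The starts of EREG, EGFR and ERBB2 are shown first, because these genes had the largest differences from the controls. Each sequence is the 250 bases before an annotated start, from the RefSeq table of GRCh38.p14, read 5' to 3' on the gene's own strand. Those of EREG (chr4:74364895-74365144), EGFR (chr7:55018767-55019016) and ERBB2 (chr17:39687844-39688093) all lie on the plus strand. Capitals mark matches to any of the motifs searched.
EREG: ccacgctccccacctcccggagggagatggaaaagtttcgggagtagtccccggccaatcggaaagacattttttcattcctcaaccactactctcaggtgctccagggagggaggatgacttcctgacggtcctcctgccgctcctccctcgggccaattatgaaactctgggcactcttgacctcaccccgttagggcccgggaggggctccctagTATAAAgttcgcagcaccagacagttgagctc
EGFR: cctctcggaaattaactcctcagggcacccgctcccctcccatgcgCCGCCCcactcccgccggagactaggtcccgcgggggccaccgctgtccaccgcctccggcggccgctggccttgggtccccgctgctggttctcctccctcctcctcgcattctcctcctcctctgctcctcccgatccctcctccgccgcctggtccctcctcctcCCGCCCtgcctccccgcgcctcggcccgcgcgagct
ERBB2: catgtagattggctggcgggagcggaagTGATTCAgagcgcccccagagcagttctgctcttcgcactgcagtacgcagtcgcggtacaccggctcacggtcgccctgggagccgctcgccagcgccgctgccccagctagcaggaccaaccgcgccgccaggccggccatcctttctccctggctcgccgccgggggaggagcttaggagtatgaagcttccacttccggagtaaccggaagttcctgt

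The motifs, searched on both strands, were the TATA box TATAAA, the GC box GGGCGG, the AP-1 site TGANTCA, the cyclic AMP response element TGACGTCA and the CArG box of serum response factor. The EREG window held 1 TATA box, a motif found in 10.7% of the 35116 windows of the table. The EGFR window shown held 2 GC boxes (42.6% of windows have at least 1). The ERBB2 window held 1 AP-1 match (6.57%), which reads TGATTCA. The pattern TGANTCA allows any base in the middle, so a match to it need not be a standard AP-1 site. The response element (1.65% of windows) and the CArG box (1.16%) had 0 matches in the windows shown, and no match overlapped another. The share of G and C was 58% for EREG, equal to the median over all windows, against 73.6% for EGFR and 65.6% for ERBB2. The table has a second EGFR start farther downstream (chr7:55109589-55109838), whose window held 0 GC boxes, 2 AP-1 matches and 2 TATA boxes at 38.8% G and C; the window shown is that of the first start. Of the 8 genes, 7 were matched to the table.

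EREG encodes epiregulin, a ligand that activates EGFR and ERBB4. It was the ligand with by far the widest spread between arrays, and the arrays of the 2 siRNAs against LSD1 lay on opposite sides of the controls. Each siRNA has 1 array, so an effect of the siRNA and the variation of a single array cannot be told apart. The EREG probe set 205767_at, in the class from 4 to 8, read -0.15 and 0.15 in control cells, 0.76 under siRNA-1 and -2.35 under siRNA-2. The siRNA-1 array thus lay above both controls and the siRNA-2 array far below both. Against the control mean the difference was 0.76 with siRNA-1 (1.69-fold higher) and -2.35 with siRNA-2 (5.10-fold lower), each with a standard error of 0.16 from a limma model in which the 2 controls alone supply the gene's spread.

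Averaging the knockdown arrays hides this. The mean knockdown-control difference of EREG was -0.80 ± 1.06 (SE, n = 2 arrays per group), an error larger than the difference. Without the siRNA-2 array the difference was 0.76, and without the siRNA-1 array it was -2.35. The difference between the siRNAs, siRNA-2 minus siRNA-1, was -3.11 ± 0.19 (SE, same model), or 8.61-fold, and was the second lowest of 19775 genes (rank 2). That error takes a lone array to vary like the controls. Over all probe sets the siRNA-2 array spread wider (SD 0.38) than siRNA-1 (0.20) and the controls (0.16 and 0.15). After quantile normalization the EREG difference was -2.22. KDM1A itself differed by 0.38 between the siRNA arrays, being lower with siRNA-1. The dim second probe set of EREG, 1569583_at, read -0.14 and 0.14 on the controls, 0.29 under siRNA-1 and -0.15 under siRNA-2, the same order of arrays with a much smaller spread (-0.44 between the siRNAs).

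Of the 8 genes, EREG alone lay above both controls with siRNA-1 and below both with siRNA-2, a pattern that 11.5% of all genes showed. It was also the 1 gene of the 8 whose siRNA-2 array was at least 2-fold below the control mean, as was the case for 2.17% of all genes. No gene of the 8 reached 2-fold with siRNA-1 (0 of 8, against 0.44% of all genes lower and 0.941% higher), and 0 of 8 were 2-fold higher with siRNA-2 (3.94% of all genes). These counts are descriptions, since the same values led to the choice of the genes.

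**Figure D1:**
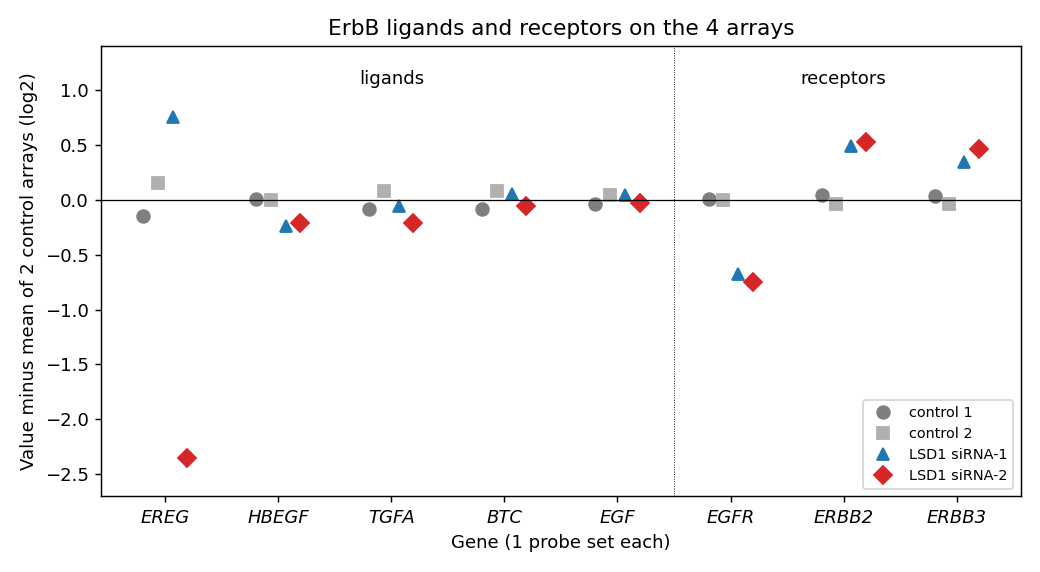
Value of each gene's main probe set minus the mean of the 2 control arrays (log2, vertical axis) for 5 ligands and 3 receptors (horizontal axis), with 1 symbol per array. EREG spans from 0.76 with siRNA-1 to -2.35 with siRNA-2, while the knockdown arrays of each receptor lie side by side, at -0.67 and -0.75 for EGFR.

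HBEGF, which encodes the heparin-binding ligand of EGFR and ERBB4, was slightly lower with each siRNA. Probe set 203821_at read 0.11 and 0.10 on the controls, -0.13 under siRNA-1 and -0.10 under siRNA-2. Both knockdown arrays lay below both controls, 1.17-fold lower on average (-0.23 ± 0.10, SE, n = 2 arrays per group). Probe set 38037_at gave nearly the same difference (-0.24), with controls at 0.06 and 0.24 and knockdown arrays at -0.06 and -0.11. The other 2 probe sets of HBEGF went the other way and overlapped with the controls, at 0.20 for 244857_at and 0.10 for the dim 222076_at.

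TGFA encodes transforming growth factor alpha, a ligand of EGFR long known from hepatoma cells. Its main probe set 205015_s_at read -0.01 and 0.15 on the controls, 0.01 under siRNA-1 and -0.14 under siRNA-2. The siRNA-1 array lay between the controls, so the groups overlapped, and the difference was -0.13 ± 0.12. The dim probe sets 205016_at (-0.18) and 211258_s_at (-0.32) lay below both controls with each siRNA. All 3 probe sets of TGFA were below the control mean on both knockdown arrays.

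The genes of betacellulin (BTC) and of EGF itself did not separate the groups. BTC, read by a pair of dim probe sets, had -0.08 and 0.09 on the controls, 0.06 under siRNA-1 and -0.06 under siRNA-2 on 207326_at. Its difference was -0.0047 ± 0.12, and its other probe set lay at -0.02. The single EGF probe set read -0.05 and 0.03 on the controls, 0.04 under siRNA-1 and -0.03 under siRNA-2, with a difference of 0.01 ± 0.10. The siRNA-2 value of EGF lay between its controls and the siRNA-1 value just above both.

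Among the receptors, EGFR was lower and ERBB2 and ERBB3 were higher on both knockdown arrays, by amounts that differed little between the siRNAs, when each is read by its main probe set; other probe sets of all 3 differ from this, as given below. EGFR, the receptor for all the ligands above, read 0.34 and 0.33 on the controls, -0.33 under siRNA-1 and -0.41 under siRNA-2 on 201984_s_at, a probe set of the brightest class. Both knockdown arrays lay well below both controls, which differed from each other by 0.01. EGFR was 1.64-fold lower (-0.71 ± 0.10, SE, n = 2 arrays per group), by -0.67 under siRNA-1 and -0.75 under siRNA-2. The siRNAs differed by -0.08 ± 0.08 from each other, a difference about equal to its standard error.

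The remaining EGFR probe sets showed how far this reading depends on the sequence probed. Of the 7 EGFR probe sets at 4 or above, all 7 were below the control mean with each siRNA, and 5 lay below both controls on both knockdown arrays. Of all 41091 named probe sets, 21226 were below the control mean with siRNA-1 and 22353 with siRNA-2. In 26.8% of them both knockdown arrays lay below both controls. The 7 probe sets read 1 gene on the same 4 arrays, so they are not independent readings. Probe set 224999_at had the largest difference, at 0.29 and 0.28 on the controls, -0.28 under siRNA-1 and -1.02 under siRNA-2. On it EGFR read 1.47-fold below the control mean under siRNA-1 and 2.47-fold below under siRNA-2. Probe set 201983_s_at likewise read lower with siRNA-2 (-0.66) than with siRNA-1 (-0.25), against 0.25 and 0.27 on the controls. On 201984_s_at, by contrast, the knockdown arrays were alike, so the probe sets do not give 1 answer on whether EGFR was lower with siRNA-2 than with siRNA-1.

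Smaller differences came from 211607_x_at (-0.48) and 1565483_at (-0.26), both below the controls on both knockdown arrays. On 210984_x_at (-0.26) and 211550_at (-0.17) the siRNA-1 array overlapped with the controls. The dim probe sets 1565484_x_at (-0.06) and 211551_at (0.16) did not go lower on both. Over all 9 probe sets the median difference of EGFR was -0.26, and the mean of all its probe sets was -0.38.

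ERBB2, which encodes HER2, the receptor that serves as partner to the others, was higher on its brightest probe set. On 216836_s_at it read -0.22 and -0.31 on the controls, 0.22 under siRNA-1 and 0.26 under siRNA-2. Both knockdown arrays lay above both controls, with a difference of 0.51 ± 0.10 (SE, n = 2 arrays per group), or 1.42-fold. The other ERBB2 probe sets disagreed. On 234354_x_at, in the class from 4 to 8, the controls read 0.43 and 0.26 and the knockdown arrays -0.26 and -0.37, a difference of -0.66 in the opposite direction. The dim 210930_s_at was above both controls with siRNA-1 (0.10) and below both with siRNA-2 (-0.38). The mean over the 3 probe sets was -0.10, so the direction of ERBB2 rests on the choice of probe set.

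ERBB3, which encodes HER3, the neuregulin receptor that signals to PI3K, was higher on both of its probe sets in the brightest class. On 226213_at the controls read -0.15 and -0.23, siRNA-1 0.15 and siRNA-2 0.27. ERBB3 was 1.32-fold higher (0.40 ± 0.11, SE, n = 2 arrays per group), and both knockdown arrays lay above both controls. Probe set 202454_s_at read -0.24 and -0.23 on the controls, 0.23 under siRNA-1 and 0.29 under siRNA-2, a difference of 0.49. The 3 less bright probe sets did not follow. 1563252_at (-0.31) and the dim 215638_at (-0.29) were lower on both knockdown arrays, and 1563253_s_at (-0.04) split between the siRNAs. The mean over all 5 probe sets was 0.05.

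**Figure D2:**
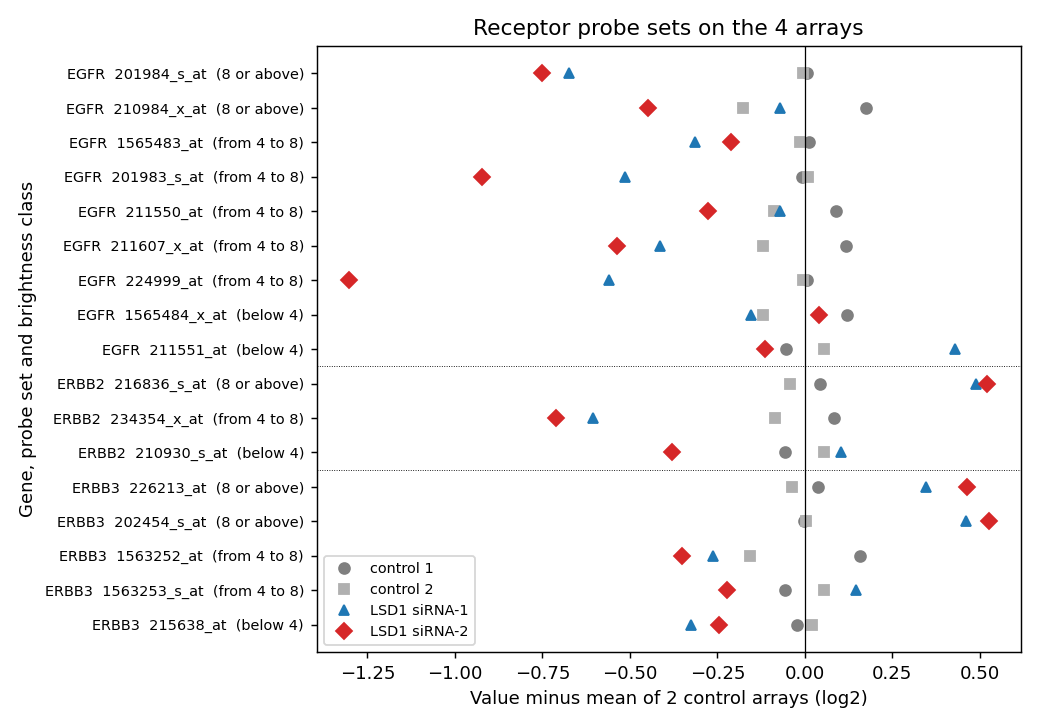
Value of every receptor probe set minus the mean of the 2 control arrays (log2, horizontal axis), 1 row per probe set with its brightness class and 1 symbol per array. The 7 EGFR probe sets at 4 or above lie below 0 on both knockdown arrays, whereas ERBB2 and ERBB3 have probe sets on either side, such as 0.51 on 216836_s_at and -0.66 on 234354_x_at for ERBB2.

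Over the main probe sets of the 8 genes, both knockdown arrays lay above both controls in 2 and below both in 2, against 23.7% and 25.4% of all genes. Nothing is read from these counts. The median knockdown-control difference of the 8 genes was -0.07, beside -0.0036 over all genes. Over all 29 probe sets, the knockdown arrays both lay below both controls in 12, of which 5 read EGFR, and both above in 3. Over all named probe sets the shares were 26.8% below and 22% above. Probe sets of 1 gene are not independent readings, so nothing is read from these counts either. In the order of the differences, EREG (-0.80) and EGFR (-0.71) stood lowest, followed by HBEGF (-0.23), TGFA (-0.13), BTC (-0.0047), EGF (0.01), ERBB3 (0.40) and ERBB2 (0.51). EREG has no settled place in it, since its standard error of 1.06 exceeds its difference and its siRNA arrays lie on opposite sides of the controls. ERBB3 and ERBB2 differ by no more than their standard errors, as do HBEGF and TGFA, and BTC and EGF. TGFA and BTC differ by slightly more than either's standard error.

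**Figure D3:**
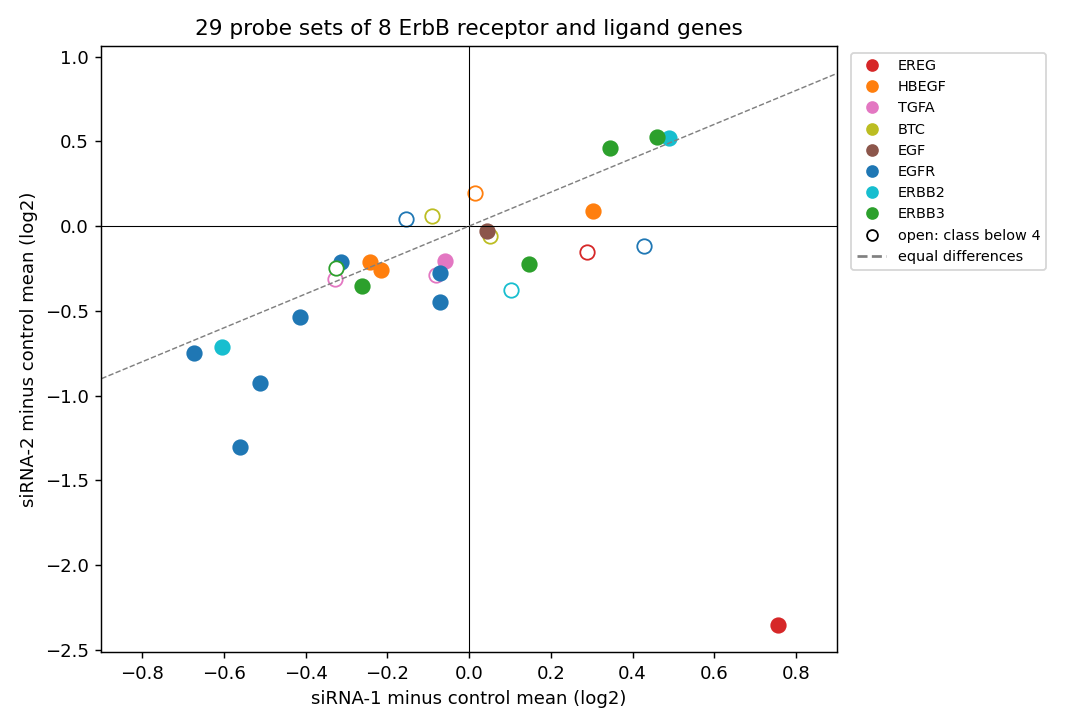
Difference from the control mean with siRNA-1 (log2, horizontal axis) and with siRNA-2 (log2, vertical axis) for the 29 probe sets, coloured by gene, with open symbols for the class below 4. The main EREG probe set lies at 0.76 and -2.35, and the EGFR probe set 224999_at at -0.56 and -1.30.

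Genes with the most similar values over the 4 arrays were named by the smallest Euclidean distance after subtracting the control mean. For EREG these were CLDN12, which encodes a claudin (distance 0.33; 0.49 under siRNA-1 and -2.37 under siRNA-2), CARNMT1, a carnosine methyltransferase gene (0.42; 0.42 and -2.46), and SLC16A4, of the monocarboxylate transporter family (0.55; 0.65 and -1.83). For EGFR they were SLF2 (0.04; -0.68 and -0.71), the proteasome activator gene PSME3 (0.04; -0.64 and -0.74) and the tetraspanin gene TSPAN4 (0.05; -0.66 and -0.78). With 4 arrays such a likeness is only a description.

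EREG lies in a row of related ligand genes on chromosome 4, with EPGN before it and AREG and BTC after it in the RefSeq order. The nearest genes that were measured did not share its values. EPGN and AREG, on either side of it, have no value here. CXCL2, CXCL3 and CXCL5, chemokine genes farther out on the EPGN side, overlapped with the controls. CXCL2 and CXCL3 are in the class below 4, where a fall would be hard to see. Next to EPGN, MTHFD2L, a mitochondrial folate enzyme gene, read -0.04 under siRNA-1 and 0.04 under siRNA-2 against the control mean, and its knockdown arrays lay between the controls. On the other side BTC, also in the class below 4, read 0.05 and -0.06. PARM1, the next gene, followed the order of EREG with a smaller spread, at 0.26 under siRNA-1 and -0.34 under siRNA-2. Farther out, RCHY1 was higher on both knockdown arrays (0.16 and 0.34) and THAP6 lower (-0.20 and -1.09). These neighbours were looked up after the EREG values were seen.

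The rest of the pathway was read from lists chosen by role and not by how the genes moved. Of 60 genes in 6 lists, 49 were measured. In the comparison of both knockdown arrays with both controls, 0 of the 49 passed limma's test (adjusted p under 0.05 over all genes), beside 1 higher gene (0.00506%; CD36, a fatty acid transporter gene, named after its value was seen) and 0 lower genes (0%) of all genes tested. At an unadjusted p under 0.05 there were 11 of the 49 (22.4%), beside 14.7% of all genes. With siRNA-2 alone, 8 of the 49 rose (16.3%) and 12 fell (24.5%), beside 13.7% and 10.4% of all genes, in a limma model whose spread comes from the 2 control arrays and which takes a lone array to vary like them (31 of the 49 and 41.3% of all genes had an unadjusted p under 0.05). With siRNA-1 alone 0 passed, in the 49 as over all genes (0% in each direction; 19 of the 49 and 27% of all genes had an unadjusted p under 0.05). That count over all genes was 92 with the mean of probe sets, 308 without dim genes and 713 with each array centred on its median, where 0, 1 (STAT5A) and 2 (STAT5A and HRAS) pathway genes passed. After quantile normalization 0 of the 49 passed with siRNA-2 (18 at an unadjusted p under 0.05).

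Ligand release covers the surface proteases that cut ligand precursors free and their regulators. Of its 7 measured genes, 1 rose and 2 fell with siRNA-2. RHBDL2, a rhomboid protease that can cleave membrane-bound EGF, had the largest difference, with controls at -0.25 and -0.77, siRNA-1 at 0.25 and siRNA-2 at 1.41. It was 2.54-fold higher on average (1.34 ± 0.45, SE, n = 2 arrays per group; limma adjusted p = 0.313, and 0.0335 with siRNA-2 alone). Its 2 dim probe sets were higher too, by 2.33 and 2.21. RHBDF2, the inactive rhomboid that carries the main sheddase ADAM17 to the cell surface, read 0.10 and 0.17 on the controls, -0.10 under siRNA-1 and -0.47 under siRNA-2 (-0.42 ± 0.16, limma adjusted p = 0.354; 0.0286 with siRNA-2 alone). ADAM17 itself (0.01) and ADAM10 (0.09), the sheddases of most of these ligands, did not pass in any of these comparisons.

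The other receptor and ligands, ERBB4 and the neuregulins, had 5 measured genes, 3 of them dim, and 0 rose or fell. NRG3 (-0.20 ± 0.11, limma adjusted p = 0.464) and ERBB4 (-0.14 ± 0.11, limma adjusted p = 0.584) had the largest differences. Among 9 adaptor genes, which link receptors to RAS, 1 rose and 3 fell with siRNA-2. PTPN11, the phosphatase SHP2, read -0.59 ± 0.16 (limma adjusted p = 0.267; -0.42 under siRNA-1 and -0.76 under siRNA-2), and its other probe sets read -0.63 and -0.36 in the same class and -0.16, -0.07 and 0.04 in the class below 4. NCK1 read -0.55 ± 0.21 (limma adjusted p = 0.354), while its other probe sets read 0.02 in the brightest class and -0.27 and -0.26 in the class from 4 to 8.

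In the RAS to ERK cascade 2 of 6 measured genes rose and 2 fell with siRNA-2. HRAS was lower, from 0.28 and 0.33 on the controls to -0.37 under siRNA-1 and -0.28 under siRNA-2 (-0.63 ± 0.10, limma adjusted p = 0.197). The scaffold gene KSR1 was higher on its brightest probe set (0.61 ± 0.12, limma adjusted p = 0.216), but its other probe sets read -0.09, 0.12 and -0.37.

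Of the 8 PI3K, AKT and STAT genes 3 rose and 1 fell with siRNA-2, and the median difference over the list was 0.34. STAT5A, a transcription factor that cytokine and ErbB receptors can activate, had the smallest adjusted p among the pathway genes named here in the comparison of both knockdown arrays with both controls. It read -0.61 and -0.54 on the controls, 0.54 under siRNA-1 and 0.66 under siRNA-2, a 2.27-fold higher level (1.18 ± 0.11, SE, n = 2 arrays per group, limma adjusted p = 0.102; 0.0156 with siRNA-2 alone and 0.084 with siRNA-1 alone). PIK3R1, the regulatory subunit that binds ERBB3, read 0.53 ± 0.14 (limma adjusted p = 0.266), with 0.48 on a second probe set and -0.15 on a dim one.

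Among 14 genes of receptor inhibition and turnover 1 rose and 4 fell with siRNA-2. PTPN1, a phosphatase that acts on EGFR (-0.60 ± 0.25, limma adjusted p = 0.373), and HGS, which sorts internalised receptors to lysosomes (-0.50 ± 0.13, limma adjusted p = 0.266), had the largest differences. On these probe sets both knockdown arrays lay below both controls. The other PTPN1 probe sets read -0.15, 0.11 and -0.27, and a dim second one of HGS read 0.16. Over the 49 genes, in 11 (22.4%) both knockdown arrays exceeded both controls and in 13 (26.5%) both fell short of them, near the shares of all genes (23.7% and 25.4%).

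The siRNAs differed from each other in 4 of the 49 genes by limma's test of that difference (8.16%, both directions counted). The matching share of all genes is the sum of 4.18% higher and 2.93% lower with siRNA-2 than with siRNA-1. The 8.16% is near that sum. By the same test 24 of the 49 and 34% of all genes had an unadjusted p under 0.05. ADAM9, a surface protease, and SHC1, an adaptor, were lower with siRNA-2 than with siRNA-1. PIK3CB, a catalytic subunit of PI3K, and SOCS5, an inhibitor that promotes EGFR degradation, were higher with siRNA-2. Each side of this test is 1 array, taken to vary like the controls, and after quantile normalization 0 of the 49 passed. EREG's difference of -3.11 was larger in size than any of these, whose sizes ranged from 0.87 to 1.02.

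**Figure D4:**
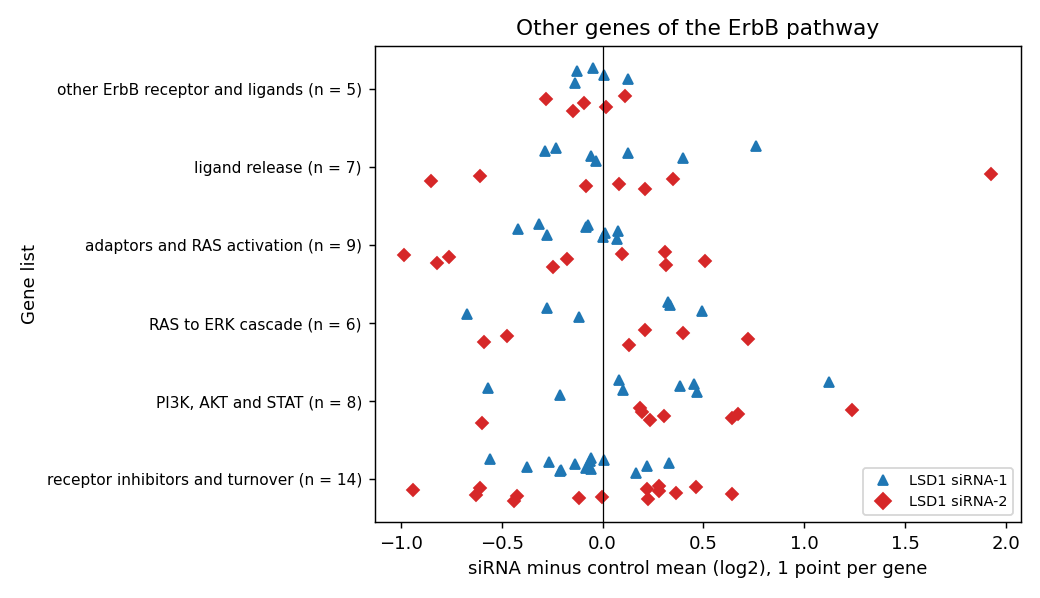
Difference from the control mean (log2, horizontal axis) of 49 other pathway genes in 6 lists (vertical axis), 1 triangle per gene for siRNA-1 and 1 diamond for siRNA-2. The diamonds spread wider than the triangles in most lists, with RHBDL2 farthest out at 1.93 with siRNA-2.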

How the data were processed

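Affymetrix signals were background-corrected, normalized and summarized per probe set by RMA, as the submitters' processing notes say, and the authors deposited the result as log2 values (base 2 is taken from RMA's usual scale). No source used here gives the software version or says whether the arrays were normalized in 1 run. A median of 0 over the 4 arrays in each probe set (largest deviation 5e-07) shows that values were then centred.

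Genes come from the platform's annotation, brought up to date by gene ID (19734 of 19775 genes matched). The members and lists were chosen with earlier results of these data known. Because centring removed the levels, the brightness class replaced the planned mean level. Each gene was read by its brightest class, then by probe sets with the plainest suffix, then by identifier. Named pathway genes are the 2 per list with the largest absolute difference, those that passed between the siRNAs, and ADAM10 and ADAM17, picked for their role after their values were seen.

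The groups were fitted in limma 3.58.1 under R 4.3.3 (empirical Bayes, both sides tested, Benjamini-Hochberg over all genes, threshold 0.05), without a replicate block. A model with 3 groups gave each siRNA. The functions were tested on simulated data. An exact permutation test with 2 arrays a side has 0.33 as its smallest p. Arrays have no read depth, so their number limits the precision. Alternatives changed the probe set rule, scaling, moderation, block, dim genes and arrays used. Scaling was changed on the centred values, so quantile normalization gave the 4 arrays the same spread and did not act on levels. Protein sequences were not used here, and the promoter motifs were chosen after the values were seen.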

Additional observations from a re-analysis of the deposited data

Results flagged for a closer look

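EREG differed between the siRNAs by -3.11 on the log2 scale (siRNA-2 minus siRNA-1), with the siRNA-1 array above both controls and the siRNA-2 array below both. This difference was not tested, because the values of both siRNAs were known when the gene was chosen.

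In limma's test of the difference between the siRNAs, which takes each lone array to vary like the controls, 4 pathway genes passed. ADAM9 (-0.97 ± 0.08, adjusted p = 0.0417) and SHC1 (-0.90 ± 0.08, adjusted p = 0.0423) were lower with siRNA-2. PIK3CB (0.87 ± 0.08, adjusted p = 0.0417) and SOCS5 (1.02 ± 0.11, adjusted p = 0.0459) were higher with siRNA-2.

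Hybridization spike-ins, which lie outside the gene comparison, were higher on the knockdown arrays by 1.28. They read -0.69 and -0.61 on the controls, 0.61 with siRNA-1 and 0.65 with siRNA-2. Their part in the gene differences was not tested.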

How the results depend on the processing

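Of 86 knockdown-control differences of the 8 genes under alternatives, 79 moved by less than the spread between replicates. Leaving 1 array out cannot move a difference by more than that spread, and the block, moderation and dim-gene settings leave it unchanged. The count of 79 was therefore largely set in advance and does not measure stability. Of the 86, 8 changed sign, 5 of these when 1 array was left out. EREG, at -0.80, read 0.76 without the siRNA-2 array, -2.35 without the siRNA-1 array, -0.37 with the mean of its probe sets and -0.27 after quantile normalization. With the mean of all probe sets HBEGF read -0.041, EGFR -0.38, ERBB2 -0.10 and ERBB3 0.054. EGFR read -0.26 without _x_at and _s_at probe sets, and quantile normalization, which evens out the wider spread of the siRNA-2 array, gave -0.82 for EGFR and 0.57 for ERBB2. BTC and EGF, near 0, changed sign with small shifts.

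By limma, 1 gene passed for knockdown minus control. There were 0 with the mean of probe sets (2829 at an unadjusted p under 0.05), without dim genes (2444), with robust moderation (2846) and with the replicate block (2196), 403 after quantile normalization, and 0 to 4771 when 1 array was left out, the highest without the siRNA-1 array. The replicate numbers did not pair the arrays (r = 0.035 for same-numbered deviations). For siRNA-1 the count was 92 with the mean of probe sets, 713 with arrays centred on their medians and 308 without dim genes, against 0. For siRNA-2 it was 3175 without _x_at and _s_at probe sets and 0 after quantile normalization, against 4771. Between the siRNAs it was 612, 3247 (centred), 0 (quantile) and 3437 (without dim genes), against 1406.

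Of the 49 pathway genes, 1 passed for knockdown minus control after quantile normalization and 0 to 20 when 1 array was left out, the highest again without the siRNA-1 array. With siRNA-1, 2 passed with centred arrays and 1 without dim genes, against 0. With siRNA-2, 0 passed after quantile normalization. Between the siRNAs 2 passed without _x_at and _s_at probe sets, 12 with centred arrays, 13 without dim genes and 0 after quantile normalization. The pathway settings and those for the difference between siRNAs of single genes were chosen after seeing the data; EREG then ranged from -3.11 to -1.77. The cause of these changes was not tested.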
